A study of Mus musculus with 4 samples.

Results

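Insulin and insulin-like growth factor (IGF) receptor genes were followed on arrays of mouse Treg cells, the Foxp3-expressing regulatory CD4 T cells that restrain other immune cells. The genes were the receptors Igf1r, Insr and Igf2r, the binding protein Igfbp4 and the adaptors Irs1, Irs2 and Grb10, taken with every probe set that the platform annotation assigns to one of these 7 symbols alone, out of 18193 genes named on the array. That gave 21 of the 45037 probe sets that are not array controls: 5 for Igf1r, 3 for Insr, 2 for Igf2r, 6 for Igfbp4, 1 each for Irs1 and Irs2, and 3 for Grb10. A further probe set is annotated to Igf2r and Airn together and was not counted. The series holds 4 arrays of splenic Treg cells from C57BL/6 mice: 2 are titled Foxo1/3-deficient and 2 wild-type, and each title also gives a pair number, so that both pairs hold 1 array of either genotype. Both deficient samples carry Foxo1-deficient as their genotype, a label without Foxo3. The sources used here do not state how or in which cells the genes were deleted, the animals' age, or whether RNA was pooled.

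Insulin and the IGFs bind receptor tyrosine kinases, INSR and IGF1R, which phosphorylate the adaptors IRS1 and IRS2 and so recruit PI3K. PI3K activates the kinase AKT, and AKT phosphorylates the FoxO transcription factors, which then leave the nucleus. In the other direction, FoxO proteins raise transcription of the insulin receptor gene in flies and in mammalian cells, and of Irs2 in mouse liver, so the receptor genes stand both upstream and downstream of FoxO. IGF2R is no kinase: it carries lysosomal enzymes and clears IGF2. IGFBP4 binds IGFs outside the cell and mostly restrains them, and its transcript is abundant in naive mouse CD4 T cells. GRB10 binds the activated receptors and dampens their signal.

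Foxo1 went against the titles, which bears on every direction below. Its brightest probe set, 1416983_s_at, read 6949 and 6697 on the arrays labelled Foxo1/3-deficient, against 2383 and 1254 on the wild-type arrays. The other bright ones went the same way: 1416981_at read 4485 and 4015 on the labelled-deficient arrays against 1161 and 720.1 on the wild-type arrays, and 1416982_at read 3133 and 3438 on the labelled-deficient arrays against 786 and 612 on the wild-type arrays. Foxo3 read 1424 and 1308 on the labelled-deficient arrays and 1876 and 2635 on the wild-type arrays for 1434831_a_at. For 1434832_at it read 554 and 521 on the labelled-deficient arrays and 861 and 1001 on the wild-type arrays. In the limma test described below, these Foxo1 probe sets passed (adjusted p = 0.0280, 0.0128 and 0.00839, in the order given). The Foxo3 ones did not (0.342 and 0.288). Nothing used here places these probe sets inside or outside the deleted part, so they cannot check the deletion. Whether the titles are exchanged between the genotypes, which would reverse every direction given here, was not tested, and all directions are those of the arrays as labelled. The signals are on the linear scale of MAS5, with the 2% trimmed mean of each array at 500.0. Foxp3 read 6504 and 6056 on the labelled-deficient arrays, against 6540 and 6285 on the wild-type arrays, so the defining transcript of Treg cells was present at a like level on all 4.

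Igf1r, Igfbp4 and Insr rose on the labelled-deficient arrays, while Igf2r differed by less and did not pass the test. Irs1, Irs2 and Grb10 were dim on nearly every array. Of the 21 probe sets, 12 had a mean over the arrays above the 40th percentile of all probe sets (a signal of about 40.5) and were tested. They covered Igf1r with 4, Insr with 1, Igf2r with 2 and Igfbp4 with 5, and each of the 12 also passed on its wild-type mean alone. Differences were tested with limma on log2(signal + 17), over 27022 probe sets, and called at a Benjamini-Hochberg adjusted p under 0.05. Of the 12 tested, 7 rose and 0 fell. Over all probe sets tested, 0.633% rose and 0.529% fell. The members were chosen with earlier results of these data known, so setting them beside these shares describes them and does not test them. At an unadjusted p under 0.05 limma still put 0 of the 12 lower, against 5.05% of all probe sets. The median log2 difference of the 12 was 2.03, beside 0.04 over all probe sets. Both labelled-deficient arrays lay above both wild-type arrays for each of the 12, which was also so for 20.9% of all probe sets tested. With the pair number as a block 8 of the 12 rose, against 2.52% of all. Many of these probe sets read the same transcript, and several were designed on the same source sequence, so the 12 are not independent measurements. With 2 arrays a group the smallest exact p is 0.333, and each p here leans on the variance that limma shares across probe sets.

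**Figure D1:**
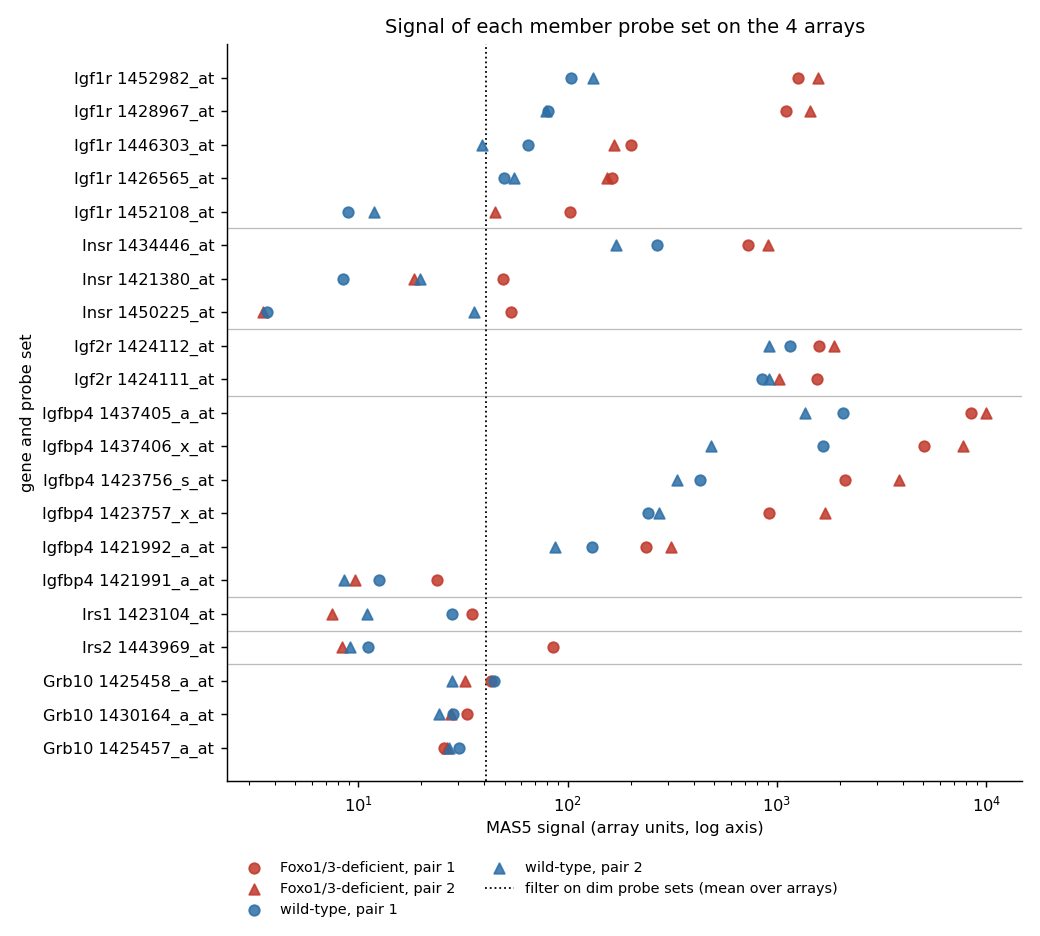
MAS5 signal (array units, log axis) of the 21 probe sets of the 7 genes on each of the 4 arrays, with arrays labelled Foxo1/3-deficient in red and wild-type arrays in blue, circles for pair 1 and triangles for pair 2. The red points lie to the right of the blue for the 12 tested probe sets of Igf1r, Insr, Igf2r and Igfbp4, whereas Irs1, Irs2 and Grb10 lie at low signal, where the colours mix except on 1425457_a_at of Grb10.

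Igf1r, the IGF1 receptor, showed the largest difference among the member genes. Probe set 1452982_at read 1252.5 and 1571 on the labelled-deficient arrays of pairs 1 and 2, against 104 and 132 on the wild-type arrays of the same pairs. The lower labelled-deficient array thus stood far above the higher wild-type array, and the ratio was nearly the same in both pairs, 12.0 and 11.9. The log2 difference was 3.40 ± 0.29 (SE; limma adjusted p = 0.00385), a 10.6-fold rise on the log2(signal + 17) scale. Probe set 1428967_at, designed on the same source sequence, read 1103 and 1434 on the labelled-deficient arrays and 80.0 and 78.3 on the wild-type arrays. Its log2 difference was 3.73 ± 0.30 (SE; limma adjusted p = 0.00289). In size these differences ranked 14 and 11 among the rises of all probe sets tested. Both rises held under every alternative setting fitted, including the omission of any 1 array.

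The remaining Igf1r probe sets were dimmer, and the tested ones among them showed smaller ratios. Probe set 1446303_at read 201 and 167 on the labelled-deficient arrays, against 64.7 and 39.0 on the wild-type arrays. The log2 difference of 1.57 (95% interval 0.72 to 2.41) missed the threshold (limma adjusted p = 0.108) but passed with the pair as a block (adjusted p = 0.0367). Probe set 1426565_at read 163 and 154 on the labelled-deficient arrays and 49.7 and 55.2 on the wild-type arrays. Its log2 difference was 1.34 (95% interval 0.55 to 2.12; limma adjusted p = 0.137). Its partner on the same source sequence, 1452108_at, lay under the filter, at 102 and 45.1 on the labelled-deficient arrays against 8.90 and 11.9 on the wild-type arrays. Labelled-deficient arrays were thus higher on each of the 5 Igf1r probe sets, without overlap, as on 20.9% of all probe sets tested. Of the 5, 1452108_at was not tested, and those that share a source sequence are not independent. The within-pair ratios ran from 11.9 to 18.3 for the bright pair of probe sets and from 2.79 to 4.28 for 1446303_at and 1426565_at. For the dim 1452108_at they were 11.5 in pair 1 and 3.80 in pair 2. These are ratios of the signals themselves, without the pseudocount of 17, which shrinks a fold more on dim probe sets. Fitted without a pseudocount, the log2 differences were 3.58 for 1452982_at and 3.99 for 1428967_at. They were 1.87 for 1446303_at and 1.60 for 1426565_at. Whether the probe sets differ in response was not tested.

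Insr, the insulin receptor, was measured above the filter by probe set 1434446_at alone. It read 729 and 907 on the labelled-deficient arrays and 266 and 169 on the wild-type arrays. The groups did not overlap, and pair 2 showed the wider gap, with ratios of 2.75 in pair 1 and 5.36 in pair 2. The log2 difference was 1.86 ± 0.32 (SE; limma adjusted p = 0.0420), a 3.62-fold rise. That call was lost without either labelled-deficient array (adjusted p = 0.0680 and 0.131) and without the wild-type array of pair 2 (0.0769), as well as without the filter (0.133) and without the intensity trend (0.0957). The other Insr probe sets share a source sequence and were dim: 1421380_at read 49.1 and 18.4 on the labelled-deficient arrays against 8.47 and 19.7 on the wild-type arrays. On 1450225_at the labelled-deficient arrays read 53.4 and 3.50 and the wild-type arrays 3.65 and 35.7, so the pairs went opposite ways. At this signal neither says anything about the direction of Insr.

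Igf2r, the sorting and IGF2-clearing receptor, did not pass the test. With the pair as a block the limma adjusted p was 0.0704 for 1424112_at and 0.276 for 1424111_at. Probe set 1424112_at read 1586 and 1877 on the labelled-deficient arrays, against 1157 and 917 on the wild-type arrays. Its log2 difference was 0.74 (95% interval 0.16 to 1.31; limma adjusted p = 0.298). Probe set 1424111_at read 1549 and 1023 on the labelled-deficient arrays and 852 and 911 on the wild-type arrays. Its log2 difference was 0.51 (95% interval -0.14 to 1.15; limma adjusted p = 0.641). On the second, the labelled-deficient array of pair 2 stood close to both wild-type arrays, and the ratio was 1.82 in pair 1 but 1.12 in pair 2. The upper bounds lie below the lower bounds of both bright Igf1r probe sets, although the difference between the genes was not tested. The probe set annotated to both Igf2r and Airn, a noncoding RNA antisense to Igf2r, was dim, at 37.2 and 20.8 on the labelled-deficient and 60.9 and 35.9 on the wild-type arrays.

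**Figure D2:**
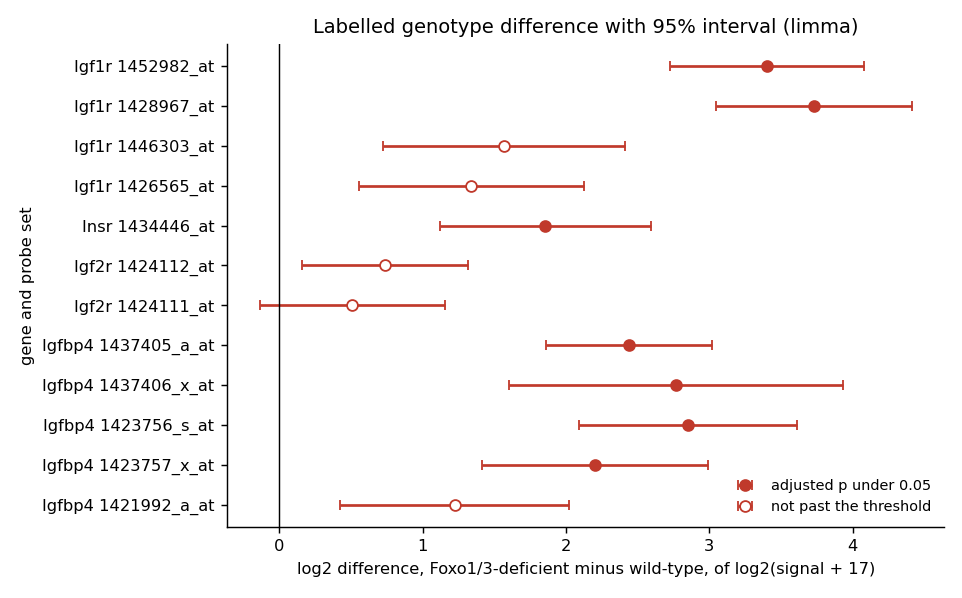
Log2 difference (Foxo1/3-deficient minus wild-type, of log2(signal + 17)) of the 12 tested probe sets, with the 95% interval from limma; filled points have an adjusted p under 0.05. The bright Igf1r probe sets stand at 3.40 and 3.73, Igfbp4 spans 1.22 to 2.85, and the Igf2r probe sets lie closest to 0, at 0.74 and 0.51.

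Igfbp4, the IGF binding protein, rose on 4 of its 5 tested probe sets. The brightest, 1437405_a_at, read 8422 and 9989 on the labelled-deficient arrays, against 2062 and 1364 on the wild-type arrays. Its ratio was 4.08 in pair 1 and 7.32 in pair 2, and its log2 difference of 2.44 ± 0.25 (SE; limma adjusted p = 0.00730) held under every alternative fitted. Probe set 1437406_x_at, on the same source sequence, read 5009 and 7738 on the labelled-deficient arrays and 1662 and 482 on the wild-type arrays. Here the wild-type arrays spread widely, the ratio was 3.01 in pair 1 and 16.1 in pair 2, and the log2 difference was 2.77 ± 0.51 (SE; limma adjusted p = 0.0488). This call stood near the threshold: it was lost without the labelled-deficient array of pair 2 (adjusted p = 0.0629), with quantile normalization (0.0581), without a pseudocount (0.0609), without the filter (0.195) and without the intensity trend (0.145), and passed under the other settings fitted.

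A second source sequence gave the same direction for Igfbp4. Probe set 1423756_s_at read 2103 and 3804 on the labelled-deficient arrays and 427 and 334 on the wild-type arrays (log2 difference 2.85 ± 0.33, SE; limma adjusted p = 0.00928). Probe set 1423757_x_at read 915 and 1692 on the labelled-deficient arrays and 242 and 274 on the wild-type arrays (log2 difference 2.20 ± 0.34, SE; limma adjusted p = 0.0292). The call on 1423757_x_at was lost without the labelled-deficient array of pair 2 (adjusted p = 0.0833), without the filter (0.105) and without the trend (0.0834), and that on 1423756_s_at without the filter (0.0526). On each of the 4 probe sets that rose, the gap was wider in pair 2 than in pair 1. The third source sequence gave a smaller difference: 1421992_a_at read 237 and 311 on the labelled-deficient arrays and 130 and 87.0 on the wild-type arrays. Its log2 difference was 1.22 (95% interval 0.42 to 2.02; limma adjusted p = 0.185). Its partner 1421991_a_at was dim, at 23.8 and 9.66 on the labelled-deficient and 12.5 and 8.48 on the wild-type arrays. In Affymetrix naming the suffixes _x and _s mark probe sets that may also read other transcripts, and the suffix _a marks those that read several transcripts of one gene.

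**Figure D3:**
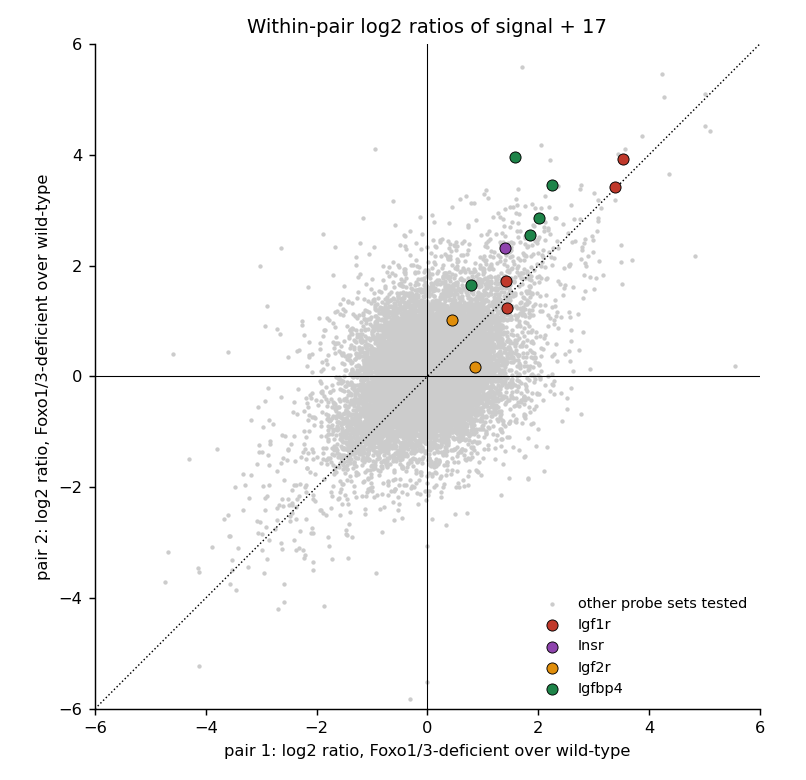
Within-pair log2 ratios of signal + 17, Foxo1/3-deficient over wild-type, in pair 1 (x axis) and pair 2 (y axis), for all 27022 probe sets tested (grey) and the 12 probe sets of Igf1r, Insr, Igf2r and Igfbp4 (coloured); the dotted line marks equal ratios. The bright Igf1r probe sets lie near or just above the line, at 3.39 and 3.53 in pair 1 and 3.41 and 3.93 in pair 2, while Igfbp4 and Insr lie above it.

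The adaptors were at low signal, so no difference between the labelled genotypes could be read from them. Irs1, which couples the receptors to PI3K, read 34.8 and 7.45 on the labelled-deficient arrays and 27.9 and 11.0 on the wild-type arrays. Its arrays differed between the pairs more than between the genotypes. Irs2, the other PI3K-coupling adaptor, read 84.8 and 8.34 on the labelled-deficient arrays and 11.1 and 9.08 on the wild-type arrays, so that 1 array alone stood apart. Grb10 read between 24.2 and 44.5 over its 3 probe sets and the 4 arrays, and its brightest, 1425458_a_at, gave 43.2 and 32.4 on the labelled-deficient arrays against 44.5 and 28.1 on the wild-type arrays. Its probe set 1425457_a_at read 25.7 and 26.5 on the labelled-deficient arrays and 30.1 and 27.0 on the wild-type arrays, without overlap but within a few units of signal. No detection calls were used, so low and absent expression cannot be told apart, and 1 probe set each for Irs1 and Irs2 is a thin basis for either gene.

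Upstream sequence was compared because Igf1r and Igfbp4 rose together and because FoxO binding sites are known in promoters of this pathway. RefSeq windows of 250 bases before the gene's start (GRCm38.p6) were found for 6 of the 7 genes, all but Insr. The FoxO core GTAAACA (or TGTTTAC on the other strand) stood in 3.17% of 32851 such windows and in none of these genes. The insulin response element CAAAACAA (or TTGTTTTG) stood in 2.21% of the windows and in those of Irs1 and Irs2. It began 33 bases before the start of Irs1 and 38 before that of Irs2, on the opposite strand in both. Sequences are given for the genes whose signal rose and those whose window held a match, on the gene's strand, 5′ to 3′, with the match in capitals. The windows are Igf1r chr7:67952007-67952256 (+), Igfbp4 chr11:99040994-99041243 (+), Irs1 chr1:82291440-82291689 (-) and Irs2 chr8:11008930-11009179 (-).
Igf1r: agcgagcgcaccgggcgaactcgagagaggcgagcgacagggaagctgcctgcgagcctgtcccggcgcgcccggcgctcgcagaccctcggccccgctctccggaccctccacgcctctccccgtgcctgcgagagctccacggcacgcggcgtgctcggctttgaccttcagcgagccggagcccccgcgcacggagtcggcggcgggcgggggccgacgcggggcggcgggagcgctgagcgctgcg
Igfbp4: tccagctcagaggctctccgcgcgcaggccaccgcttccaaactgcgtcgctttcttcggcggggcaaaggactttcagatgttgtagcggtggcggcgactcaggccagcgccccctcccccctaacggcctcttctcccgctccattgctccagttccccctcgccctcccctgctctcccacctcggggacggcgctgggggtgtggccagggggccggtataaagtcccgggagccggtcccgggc
Irs1: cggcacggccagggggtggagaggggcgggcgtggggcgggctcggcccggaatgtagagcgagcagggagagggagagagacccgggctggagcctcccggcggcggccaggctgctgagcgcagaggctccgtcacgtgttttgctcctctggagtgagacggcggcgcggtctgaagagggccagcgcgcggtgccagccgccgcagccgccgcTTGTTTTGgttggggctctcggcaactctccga
Irs2: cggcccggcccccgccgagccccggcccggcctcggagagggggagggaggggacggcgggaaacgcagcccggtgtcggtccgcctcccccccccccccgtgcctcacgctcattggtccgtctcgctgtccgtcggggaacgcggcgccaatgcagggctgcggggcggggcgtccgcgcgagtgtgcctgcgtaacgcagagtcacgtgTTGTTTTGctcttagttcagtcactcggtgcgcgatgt
All 4 windows are rich in G and C, with shares of 77.6% for Igf1r, 69.2% for Igfbp4, 72.4% for Irs1 and 72.8% for Irs2, against a median of 52.4% over all windows. A match in these letters is a description and not a binding site, and the windows without one say nothing about FoxO binding elsewhere in the gene.

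Few genes of the rest of the pathway passed the test, though a larger share rose than over all genes. Of 115 further genes of insulin and IGF signalling, 109 had a probe set and 92 passed the filter, each read from its brightest probe set. Among these 92, 4 rose and 0 fell, where 0.801% of all genes rose and 0.883% fell. These lists were chosen with earlier results of these data known, so the shares describe them and do not test them. At an unadjusted p under 0.05, limma put 13 of the 92 higher, against 5.65% of all genes, and 5 of them lower, against 6.74%. Both labelled-deficient arrays lay above both wild-type arrays for 26 of the 92, as for 20.0% of all genes. The median log2 difference of the 92 was 0.04, beside -0.0034 over 12115 genes. Blocking on the pair gave 7 rises and 1 fall, against 2.99% and 3.93% of all genes; the added genes, named here after their values were seen, were Pik3r5, Inpp4b and Grb7, at 3.63-, 2.83- and 3.11-fold higher, and Nck2, with a log2 difference of -0.75. Without the filter on dim probe sets, or without the intensity trend, 0 of the 92 passed.

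The 4 that rose were Foxo1, described above, and 3 genes that act on PI3K or AKT. Pik3ip1, an inhibitor of PI3K, read 1534 and 1750.3 on the labelled-deficient arrays, against 439 and 322 on the wild-type arrays (log2 difference 2.07 ± 0.27, SE; limma adjusted p = 0.0148). Trib2, a pseudokinase of the tribbles family, read 6290 and 8788 on the labelled-deficient arrays and 1751 and 2527 on the wild-type arrays (1.81 ± 0.26, SE; limma adjusted p = 0.0223, and 0.0597 without the labelled-deficient array of pair 2). Pik3cd, the leukocyte catalytic subunit of PI3K, read 2039 and 2445 on the labelled-deficient arrays and 867 and 746 on the wild-type arrays (1.45 ± 0.25, SE; limma adjusted p = 0.0386). Pik3cd lost the call without either labelled-deficient array (adjusted p = 0.0851 and 0.173) and without the wild-type array of pair 2 (0.0806). For each of the 3 the groups did not overlap, as for 20.0% of all genes in this direction. The 3 were picked by the test on these same arrays, so this adds no support.

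By role, 3 of 21 PI3K and AKT genes rose, with a median log2 difference of 0.24. Over all genes 0.801% rose and 0.883% fell, with a median of -0.0034. In limma 0 of 3 ligand genes, 0 of 11 other receptors and binding proteins and 0 of 32 other adaptors and receptor brakes passed, with medians of 0.70, 0.18 and -0.06. At an unadjusted p under 0.05, where 5.65% of all genes were higher and 6.74% lower, these lists held 1, 2 and 2 higher genes and 0, 1 and 1 lower ones, and the PI3K and AKT list held 6 higher and 2 lower. Of 25 mTOR pathway and output genes Foxo1 alone passed, with a median of 0.04, and 2 were higher and 1 lower at an unadjusted p under 0.05. Igf1, a ligand of IGF1R, was singled out after its values were seen: it read 355 and 206 on the labelled-deficient arrays and 101 and 153 on the wild-type arrays (log2 difference 1.02; limma adjusted p = 0.356). Igfbp7, another binding protein, chosen in the same way, read 198 and 193 on the labelled-deficient and 96.2 and 72.4 on the wild-type arrays (1.08; limma adjusted p = 0.237).

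**Figure D4:**
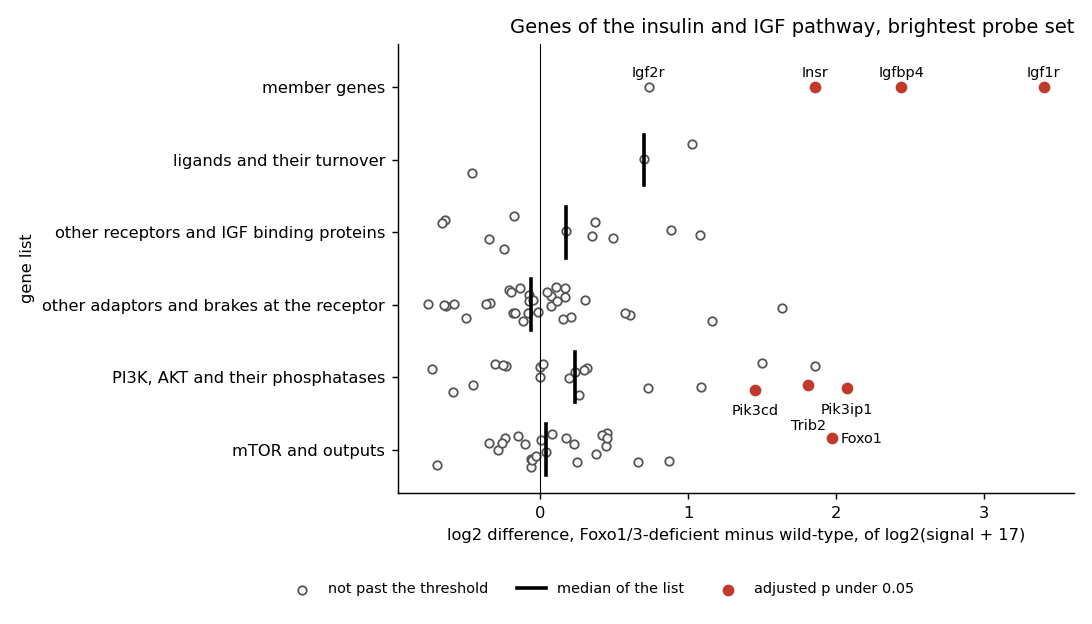
Log2 difference (Foxo1/3-deficient minus wild-type, of log2(signal + 17)) of the 4 member genes with a tested probe set and of 92 further pathway genes, in rows by role; filled points have an adjusted p under 0.05 and bars mark each list's median. Igf1r, Igfbp4 and Insr stand to the right of most points, and the lists' medians lie between -0.06 and 0.70.

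Genes whose 4 values ran most like those of a member were found by the distance between log2 values centred on each probe set's mean, over 4 arrays. For Igf1r these were Aff3, Ms4a6c and Gbp2b, at distances of 0.32, 0.39 and 0.41. Aff3 read 363 and 528 on the labelled-deficient arrays and 28.0 and 43.0 on the wild-type arrays. The nearest to Insr were Abcg2, Ttc28 and Mtss1, at 0.08, 0.09 and 0.17, and the nearest to Igfbp4 were Cnn3, Atp1b1 and A630023P12Rik, at 0.13, 0.17 and 0.20. Slc12a9, Fam160a2 and Tcn2 came closest to Igf2r, at 0.03, 0.04 and 0.05. With 4 arrays many probe sets can lie this close, the more so where the difference is small.

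Markers of T cell state moved with the members. These lists too were chosen with earlier results of these data known. Of 15 naive and homing T cell genes 8 rose, where 0.801% of all genes did. With the pair as a block 13 rose, against 2.99% of all genes. Their summed signal was 86049 and 78390 on the labelled-deficient arrays, against 36193 and 31634 on the wild-type arrays. Of 23 effector Treg genes 10 fell, where 0.883% of all genes did, with sums of 75931 and 84701 on the labelled-deficient arrays and 184270 and 171589 on the wild-type arrays. Of 19 cell cycle genes 4 fell, where 0.883% of all genes did, and 15 fell with the block, where 3.93% did. Their sums were 45958 and 51530 on the labelled-deficient arrays and 87774 and 90365 on the wild-type arrays. In these 3 lists 0 genes moved the other way at an unadjusted p under 0.05 in limma. General T cell genes summed to 45816 and 45424 on the labelled-deficient arrays and 48502 and 46865 on the wild-type arrays. Of 9 Treg genes 2 rose, where 0.801% of all genes did. Treg genes summed to 57470 and 58926 on the labelled-deficient and 41783 and 49506 on the wild-type arrays. In bulk RNA, fewer cells of a state and less RNA per cell cannot be told apart, and the part of cell state in the rise of Igf1r, Igfbp4 and Insr was not tested.

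Markers of other spleen cells were also read, since myeloid and stromal cells express Igf1r and Insr too. Of 17 macrophage and monocyte genes 0 passed in limma, 6 were higher at an unadjusted p under 0.05 (5.65% of all genes were), and 5 rose with the pair as a block (2.99% of all genes did). Their summed signal was 36404 and 33234 on the labelled-deficient arrays and 29087 and 26287 on the wild-type arrays, with within-pair ratios of single genes between 0.655 and 3.18. Csf1r, the growth factor receptor of this lineage, read 6676 and 5165 on the labelled-deficient and 4749 and 2987 on the wild-type arrays, which is well above the filter. Of 10 B and plasma cell genes 0 passed in limma, and 0 also at an unadjusted p under 0.05. With the block 1 rose, against 2.99% of all genes. All 10 had a log2 difference above 0, as had 6017 of all 12115 genes. The list summed to 5482 and 6356 on the labelled-deficient and 5109 and 3514 on the wild-type arrays. Sums of a cell list take in its genes under the filter.

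Dendritic cell genes summed to 1137 and 1010 on the labelled-deficient and 1074 and 825 on the wild-type arrays, and stromal and endothelial genes to 727 and 652 on the labelled-deficient and 599 and 546 on the wild-type arrays. Of 5 tested neutrophil genes 0 passed in limma. At an unadjusted p under 0.05 limma put 2 lower, against 6.74% of all genes. With the block 1 fell, against 3.93% of all genes. Neutrophil genes summed to 595 and 454 on the labelled-deficient and 1669 and 1049 on the wild-type arrays, and red cell and platelet genes to 662 and 570 on the labelled-deficient and 615 and 668 on the wild-type arrays. CD8 T cell genes, of which 3 of 7 fell where 0.883% of all genes did, summed to 2887 and 3088 on the labelled-deficient and 16434 and 12015 on the wild-type arrays. Cd8a itself read 149 and 219 on the labelled-deficient and 232 and 143 on the wild-type arrays. Of 6 natural killer cell genes 3 fell, where 0.883% of all genes did. The natural killer list summed to 3776 and 3660 on the labelled-deficient and 18512 and 21545 on the wild-type arrays. It shares Gzma with the effector Treg list, so its sum cannot be assigned to natural killer cells alone. The part of these cells in the members' values was not tested.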

How the data were processed

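The authors deposited a linear intensity for each of 45101 probe sets on 4 arrays, computed with MAS5 per the submitters' processing notes, which state no version or settings. All arrays had the same trimmed mean, so no further scaling was applied. Symbols came from the platform annotation and were looked up by gene ID in a RefSeq table (GRCm38.p6), which held those of 34741 of 34945 probe sets with 1 symbol and changed 0 symbols. The members and lists were chosen with earlier results of these data known. Signals were tested as log2(signal + 17), 17 being the 25th percentile of all values, in limma 3.58.1 (R 4.3.3; lmFit, eBayes with intensity trend, two-sided). Control probe sets and those under the 40th percentile of mean log2 signal were left out of the fit. Residual degrees of freedom were 2, and the shared variance model contributed 6.17 more. The fitting step was first tested on simulated data.

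The titles call the number a pair, which is where the pairing comes from; same-numbered arrays deviated together from their group means, with a Pearson r of 0.282 across 27022 probe sets, which are not independent replicates. Nothing in the labels says whether arrays came from separate animals, so p-values are not known to cover the spread between animals. They rest on the spread between these arrays and on the variance shared across probe sets. The number of arrays limits the precision. Named genes were the members, Foxo1 and Foxo3, pathway genes past the threshold (at most 25), the first 3 markers of a cell list where they bear on a result, and the 3 genes most like each member. Outside this rule Igf1, Igfbp7, Pik3r5, Inpp4b, Grb7 and Nck2 were named after their values were seen. Alternatives were quantile normalization, other pseudocounts and filters, other variance models, the pair as a block, 1 probe set per gene, and each array left out.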

Additional observations from a re-analysis of the deposited data

How the results depend on the processing

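All 12 tested member probe sets kept a positive log2 difference under each alternative fitted, and 3 kept their call in all of them (Igf1r 1452982_at and 1428967_at, Igfbp4 1437405_a_at). The number of member probe sets that rose, 7, became 3 without the filter, 4 without the intensity trend and 3 with 1 probe set per gene (4 fitted), and ran from 4 to 7 with 1 array left out; 0 fell throughout. Over all probe sets, 171 rose and 143 fell; without the filter the counts were 38 and 29, without the trend 47 and 51, and with 1 array left out 110 to 368 rose and 98 to 187 fell. With the pair as a block the counts were 682 and 705. In an alternative added after seeing the data, the block without the filter, they were 345 and 352. Fits without the filter covered 45037 probe sets, against 27022 in the main fit. With 1 probe set per gene, 147 of 12115 rose and 164 fell. Among pathway genes 4 rose and 0 fell, with 0 rises without the filter and 0 without the trend, 7 rises and 1 fall with the block, and 2 to 6 rises with 1 array left out. The extra calls with the block rest on 1 residual degree of freedom, and no further member call changed with it beyond Igf1r 1446303_at. The rises without the wild-type array of pair 1 (368) exceeded those with it. The cause of these changes was not tested. The Insr rise and 3 Igfbp4 rises were lost without the filter, and the Insr rise and 2 Igfbp4 rises without the trend.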
